A study of Mus musculus with 6 samples.

Results

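TREM2 signalling and the microglial genes of Alzheimer risk are represented here by 10 genes, chosen by name: the receptor Trem2, the adaptors Tyrobp and Hcst, the kinase Syk, the phospholipase Plcg2, the phosphatase Inpp5d, the actin regulator Abi3, and the endocytic genes Bin1, Sorl1 and Picalm. They are 10 of the 49585 genes listed in the count files. The rule is a list of names, with no threshold on a measured value, but the list was made with earlier results of these data known. The libraries come from microglia, the resident macrophages of the brain, of male mice aged 3 months: 3 wild-type mice (WT) and 3 mice labelled IRF8KO, a knockout of the transcription factor IRF8. Cells were freed from each brain without enzymes and sorted by flow cytometry into TRIzol, and poly(A) RNA was made into libraries with SMART-Seq v4 and Nextera XT, which mark neither strand nor molecule. The labels name no strain, allele, Cre driver or litter for either genotype, and neither group received a treatment.

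TREM2 is a lipid- and lipoprotein-sensing receptor of macrophages with no signalling tail of its own. It pairs in the membrane with TYROBP (DAP12), whose ITAM motif recruits the kinase SYK once phosphorylated, and with HCST (DAP10), which recruits PI3 kinase instead. SYK activates PLCG2, while the lipid phosphatase SHIP1, the product of Inpp5d, removes the PI3 kinase product. ABI3 belongs to a complex that remodels actin, and BIN1, PICALM and SORL1 act in membrane bending, clathrin uptake and endosomal sorting. Human variants in or near all of these genes except Hcst and Syk have been tied to Alzheimer disease, or for Tyrobp to the related dementia of Nasu-Hakola disease.

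Gene counts summed to between 3658917 and 11098363 per library. Irf8 itself was counted in every library, at 795, 851 and 1403 CPM in WT and 743, 650 and 850 CPM in the libraries labelled IRF8KO. CPM are counts per 1000000 of the library size after TMM scaling. The log2 fold change of Irf8, IRF8KO against WT, was -0.44 (SE 0.33, adjusted p = 0.368). It was called lower with library size alone (-0.90, adjusted p = 0.0076) and with the GC offset, without or with the replicate block (-0.67 and -0.66, adjusted p = 0.020 and 0.028). A whole-gene count does not show whether the transcript is intact, so it does not check the labels. Apoe took 0.154% to 0.324% of the counts in WT and 25.5% to 33.7% in IRF8KO, which shrinks every other gene's share of the IRF8KO libraries before scaling. WT replicate 3 stood apart: leaving it out raised the number of genes called from 2109 to 4003, while leaving out WT replicate 1, WT replicate 2, IRF8KO replicate 1 or IRF8KO replicate 3 lowered it to 1308, 1171, 1147 and 910. The 12 microglial markers, of which 1 was higher and 6 were lower in IRF8KO, summed to 45963 to 74266 CPM in WT and 33883 to 47709 CPM in IRF8KO. Of 12 markers of border-associated macrophages, the macrophages of the meninges and vessel walls, the sums were 612 to 835 CPM in WT and 3819 to 5036 CPM in IRF8KO. Several of them, such as Cd163 and F13a1 at 0 in WT, passed the filter through the IRF8KO libraries alone, so calls over that list are not counted. Stab1, which made up most of the WT sum, stood at 602, 651 and 823 CPM in WT and at 2308, 1767 and 1775 CPM in IRF8KO. Mrc1 stood at 3.70, 2.62 and 3.03 CPM in WT and at 24.6, 60.8 and 32.5 CPM in IRF8KO. Lyve1 and Cd209f were at 0 in every library, and Folr2 and Clec10a reached at most 0.276 and 1.19 CPM. The part of such cells in the results below was not tested, and in bulk libraries fewer cells of a type and less RNA per cell cannot be told apart.

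All 10 genes were detected in every library and passed the filter on low counts. In IRF8KO, 3 of them rose (Tyrobp, Hcst and Sorl1), 2 fell (Bin1 and Picalm) and 5 did not pass the test (Trem2, Syk, Plcg2, Inpp5d and Abi3). A gene counts as called at an adjusted p under 0.05 in edgeR's quasi-likelihood test with Benjamini-Hochberg adjustment over all 11041 genes tested. Of those, 19.1% were called, 9.64% higher and 9.46% lower, beside 5 of these 10. The 10 were not chosen blind to these data, so the shares are set side by side as a description only. The libraries of the groups did not overlap for 6 of the 10 genes, 3 higher and 3 lower in IRF8KO. Over all genes tested this held for 37.9%, with 20.0% higher and 17.9% lower. The median log2 fold change of the 10 genes was 0.20, beside -0.11 over all genes tested. Without WT replicate 3 the number that rose was 5, since Trem2 and Abi3 then passed the test. The number that fell was 4, with Plcg2 and Inpp5d added, when library size alone or an offset for gene GC content was used. No gene of the 10 that passed the test changed direction under any of the 18 alternative settings.

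**Figure D1:**
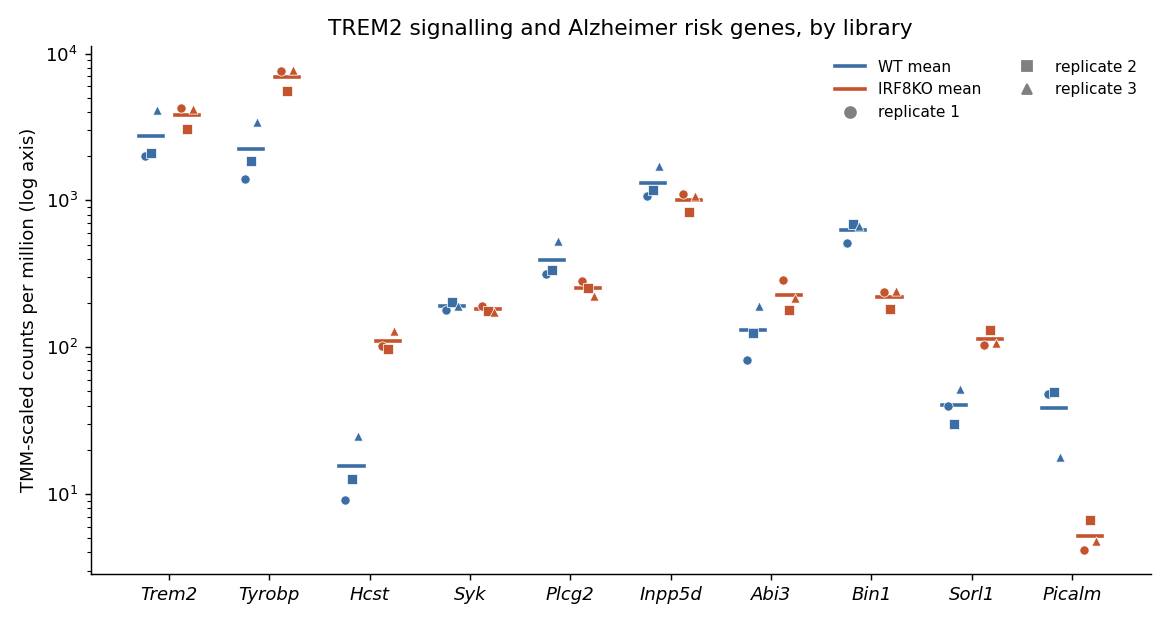
Level of each of the 10 genes in each library, in TMM-scaled CPM on a log axis; blue is WT, red is IRF8KO, symbols mark the 3 replicates and bars the group means. Hcst, Tyrobp and Sorl1 lie higher in all 3 IRF8KO libraries than in any WT library, and Picalm, Bin1 and Plcg2 lie lower.

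Trem2, the receptor (ENSMUSG00000023992, GRCm38 chromosome 17, 48346401 to 48354147, plus strand), stood at 2012, 2101 and 4093 CPM in WT and at 4223, 3051 and 4203 CPM in IRF8KO. WT replicate 3 reached the level of the IRF8KO libraries, so the groups overlapped, while the other 2 WT libraries lay below all 3 IRF8KO libraries. The means were 2735 ± 1177 and 3826 ± 671 CPM (SD, n = 3 each), a log2 fold change of 0.48 (SE 0.38, adjusted p = 0.402). Without WT replicate 3 it was 0.92 (adjusted p = 0.006), and with library size alone it was 0.04. As a share of all gene counts, Trem2 took 0.283%, 0.273% and 0.375% in WT and 0.293%, 0.312% and 0.349% in IRF8KO. These shares overlap as well, but Apoe, at 25.5% to 33.7% of the IRF8KO counts, lowers them there. Their overlap is therefore no separate check. Scaled without Apoe, the log2 fold change of Trem2 was 0.54 and did not pass the test (adjusted p = 0.355). With all 6 libraries, a difference in the receptor transcript was not established in either direction.

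Tyrobp encodes DAP12, the ITAM adaptor that TREM2 and several other myeloid receptors need at the cell surface (ENSMUSG00000030579, chromosome 7, 30413760 to 30417585, plus strand). Its level was 1401, 1861 and 3409 CPM in WT and 7641, 5543 and 7731 CPM in IRF8KO. The lowest IRF8KO library was above the highest WT library, which was again replicate 3. Means were 2224 ± 1052 and 6972 ± 1238 CPM (SD, n = 3 each), and Tyrobp rose by 1.65 on the log2 scale (SE 0.41, adjusted p = 0.016). The call depended on the libraries: the log2 fold change was 2.12 without WT replicate 3, but the adjusted p was 0.068 without WT replicate 1, 0.082 without WT replicate 2, 0.065 without IRF8KO replicate 1 and 0.098 without IRF8KO replicate 3, with log2 fold changes of 1.39, 1.53, 1.58 and 1.58. As a share of gene counts, which uses no scaling factor, Tyrobp went from 0.197%, 0.242% and 0.312% in WT to 0.529%, 0.567% and 0.642% in IRF8KO.

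Hcst, which encodes the PI3 kinase-binding adaptor DAP10, lies next to Tyrobp on chromosome 7 (ENSMUSG00000064109, 30417712 to 30419854, minus strand). It had 47, 179 and 179 counts in WT and 637, 1084 and 1192 counts in IRF8KO, or 9.14, 12.7 and 24.7 CPM against 102, 97.3 and 129 CPM. Every IRF8KO library was far above every WT library. The means were 15.5 ± 8.14 and 109.6 ± 17.2 CPM (SD, n = 3 each), a 7.05-fold rise with a log2 fold change of 2.82 (SE 0.38, adjusted p = 0.00042). It passed the test in all 18 alternatives, with log2 fold changes from 2.41 to 3.34. The 3' ends of Tyrobp and Hcst face each other with 126 bases between them, and the counts carry no strand, so reads of the 2 genes are told apart by position alone. DAP10 is best known from natural killer and T cells, where it serves the receptor NKG2D. Of 14 markers of those cells 9 were at 0 in every library, the sum of all 14 was at most 0.142 CPM in WT and 2.33 CPM in IRF8KO, and Klrk1, the gene of NKG2D, had no count in any library.

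Within each library the 3 genes were also set against each other, since a ratio of 2 genes in 1 library does not depend on how libraries are scaled. Per base of exon, Trem2 stood to Tyrobp as 0.194, 0.152 and 0.162 in WT and as 0.0745, 0.0742 and 0.0733 in IRF8KO. The 3 IRF8KO values were nearly equal and all lay below the WT values. The mean ratio was 0.169 ± 0.0217 in WT and 0.0740 ± 0.000631 in IRF8KO (SD, n = 3 each), a log2 difference of -1.19. The exact two-sided permutation test gave p = 0.1, the smallest value that 3 against 3 libraries allow. Hcst stood to Tyrobp as 0.00603, 0.00629 and 0.00669 in WT and as 0.0124, 0.0162 and 0.0155 in IRF8KO. That is a log2 difference of 1.20 with the same exact p of 0.1, without overlap between the groups. Relative to Tyrobp, then, there was less receptor transcript and more Hcst transcript in each IRF8KO library than in any WT library. Of the other 7 genes, whose ratios were computed after their values had been seen, Syk, Plcg2, Inpp5d, Abi3, Bin1 and Picalm were all lower relative to Tyrobp in IRF8KO, without overlap, at log2 differences of -1.82, -2.34, -2.11, -0.88, -3.24 and -4.52. Sorl1 overlapped between groups, at -0.22. A ratio shows unequal change and not which of its 2 genes moved. Tyrobp itself rose by 1.65 on the log2 scale, beside a median of -0.11 over all genes tested. A gene without any change, Trem2 included, would therefore also be lower relative to Tyrobp. The share of all genes whose ratio to Tyrobp does not overlap was not computed, so nothing particular to these genes is read from the lower ratios.

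**Figure D2:**
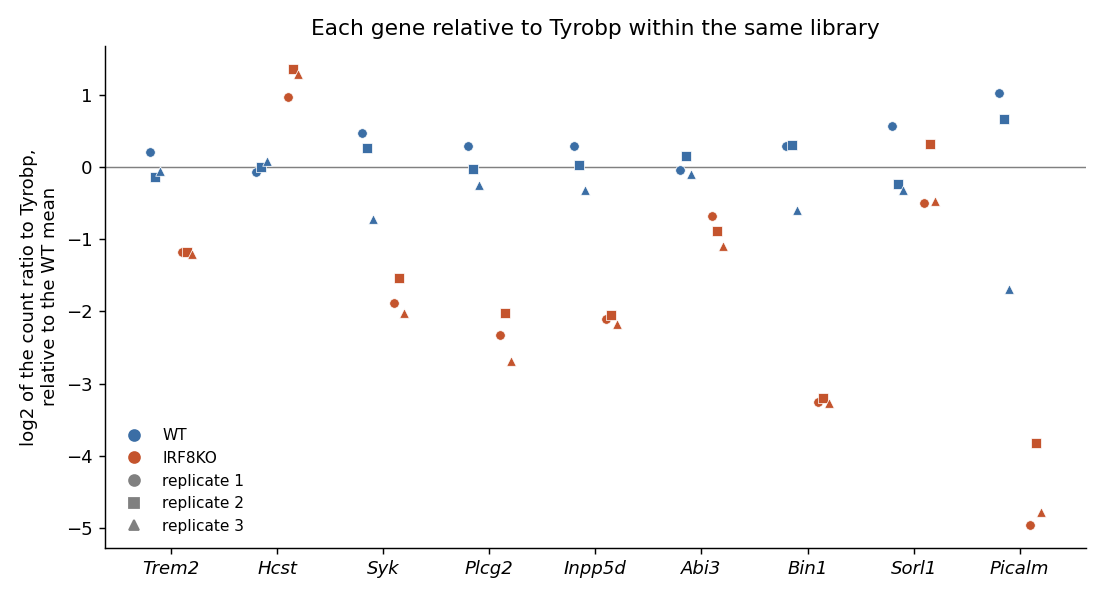
Log2 ratio of each gene to Tyrobp within each library, as a difference from the WT mean of that gene (the line at 0); blue is WT, red is IRF8KO and symbols mark the replicates. Hcst lies higher in the IRF8KO libraries, Sorl1 overlaps, and the other 7 genes lie lower.

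Syk encodes the tyrosine kinase that docks on the phosphorylated ITAM of DAP12 and of the Fc receptor chain (ENSMUSG00000021457, chromosome 13, 52583173 to 52648792, plus strand). Its level was 178, 204 and 191 CPM in WT and 191, 176 and 175 CPM in IRF8KO. It was the steadiest of the 10 genes within groups, and the groups overlapped. The means of 191 ± 13 and 180.5 ± 8.99 CPM (SD, n = 3 each) gave a log2 fold change of -0.08 (SE 0.26, adjusted p = 0.853). Over the 18 alternatives the value ran from -0.59 to 0.00 and was never called.

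Plcg2 encodes the phospholipase that cleaves PIP2 downstream of SYK in macrophages and B cells (ENSMUSG00000034330, chromosome 8, 117498291 to 117635142, plus strand). It stood at 315, 336 and 528 CPM in WT and at 282, 252 and 222 CPM in IRF8KO. All 3 IRF8KO libraries were below all WT libraries, though WT replicates 1 and 2 were close to IRF8KO replicate 1. The means were 393 ± 117 and 252 ± 30.0 CPM (SD, n = 3 each). The log2 fold change of -0.64 (SE 0.30) did not pass the test, with an unadjusted p of 0.055 and an adjusted p of 0.158. It passed at -1.10 with library size alone (adjusted p = 0.0037) and at -0.88 with the GC offset (adjusted p = 0.0044).

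Inpp5d encodes SHIP1, the phosphatase that turns the PI3 kinase product PIP3 into another lipid and so limits ITAM and DAP10 signals (ENSMUSG00000026288, chromosome 1, 87620312 to 87720507, plus strand). It was at 1067, 1185 and 1702 CPM in WT and at 1103, 838 and 1068 CPM in IRF8KO. The groups overlapped by a small margin, WT replicate 1 lying among the IRF8KO libraries. Means were 1318 ± 338 and 1003 ± 144 CPM (SD, n = 3 each), with a log2 fold change of -0.39 (SE 0.32, adjusted p = 0.417). As with Plcg2, the value passed with library size alone (-0.87, adjusted p = 0.0034) and with the GC offset (-0.65, adjusted p = 0.0072). Plcg2, Syk and Inpp5d are also B cell genes, and 3 of 10 B cell markers could be tested and were lower in IRF8KO. The 10 markers summed to 533.5 to 883.6 CPM in WT and 37.1 to 48.3 CPM in IRF8KO. Ighm made up most of the sum in each WT library and less in IRF8KO, at 20.6, 13.6 and 18.9 CPM, where Cd79b stood at 20.2, 15.4 and 15.8 CPM. Ms4a1 and Pax5, which mark B cells, were at 0 in all 6 libraries. The part of such cells in the values of Plcg2, Syk and Inpp5d was not tested.

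Abi3, a subunit of WAVE-type actin complexes that is restricted in the brain largely to microglia, lies on the minus strand of chromosome 11 (ENSMUSG00000018381, 95830074 to 95842476). It stood at 81.3, 124 and 190 CPM in WT and at 286, 180 and 217 CPM in IRF8KO. Only WT replicate 3 reached the IRF8KO range. Means were 132 ± 54.7 and 228 ± 53.8 CPM (SD, n = 3 each), with a log2 fold change of 0.79 (SE 0.34, unadjusted p = 0.041, adjusted p = 0.129). Without WT replicate 3 the value was 1.17 and passed (adjusted p = 0.0056). Other genes share 75.8% of the exonic length of Abi3, so counts that ignore strand rest on the remainder and the level of Abi3 is uncertain. On the first and second strand columns its log2 fold change was 0.54 and 0.37 (adjusted p = 0.297 and 0.492). The kit marks no strand, so these columns do not separate the reads of Abi3 from those of genes on the other strand.

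Bin1 encodes amphiphysin 2, a membrane-curving protein of endocytosis that neurons and oligodendrocytes also make (ENSMUSG00000024381, chromosome 18, 32377230 to 32435737, plus strand). Its level fell from 513, 687 and 674 CPM in WT to 239, 181 and 241 CPM in IRF8KO. The highest IRF8KO library was less than the lowest WT library by a wide margin, and WT replicates 2 and 3 were close together. The means were 625 ± 97.1 and 220.2 ± 33.7 CPM (SD, n = 3 each), 2.84-fold lower in IRF8KO, with a log2 fold change of -1.50 (SE 0.29, adjusted p = 0.0042). It was called in all 18 alternatives, at -2.02 to -1.37.

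Sorl1 encodes SORLA, the sorting receptor that carries APP between endosome and Golgi with the retromer complex (ENSMUSG00000049313, chromosome 9, 41964720 to 42124297, minus strand). It went from 39.7, 30.0 and 52.0 CPM in WT to 103, 131 and 106 CPM in IRF8KO. Again the groups were well apart. Means of 40.6 ± 11 and 113 ± 15.5 CPM (SD, n = 3 each) gave a 2.80-fold rise, or 1.48 on the log2 scale (SE 0.29, adjusted p = 0.0047), which was called in all 18 alternatives, at 1.05 to 1.76. Neurons express Sorl1 as well, and 10 neuronal markers summed to 0.425 to 13.5 CPM in WT and 33.2 to 55.1 CPM in IRF8KO. For oligodendrocytes, the sums of 285 to 700 CPM in WT and 484 to 694 CPM in IRF8KO overlapped. Of 6 tested markers 0 were called higher and 1 lower, and the sum mixes opposite moves. Mbp stood at 137, 44.0 and 274 CPM in WT and at 545, 402 and 365 CPM in IRF8KO, without overlap but not called. Cnp, the lower one, went from 124, 157 and 276 CPM to 62.1, 38.8 and 34.7 CPM. The part of such cells in the values of Sorl1 and Bin1 was not tested.

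Picalm encodes a clathrin assembly protein that links clathrin to the membrane and helps to set vesicle size (ENSMUSG00000039361, chromosome 7, 90130213 to 90213465, plus strand). It had 248, 701 and 130 counts in WT and 26, 74 and 44 counts in IRF8KO, or 48.2, 49.6 and 17.9 CPM against 4.17, 6.64 and 4.77 CPM. WT replicate 3 was the lowest WT library here and still exceeded every IRF8KO library. Group means were 38.6 ± 17.9 and 5.20 ± 1.29 CPM (SD, n = 3 each). That is 7.37-fold lower, with a log2 fold change of -2.88 (SE 0.45, adjusted p = 0.0011), the largest fall among the 10 genes, and it was called in all 18 alternatives. Picalm is the most AT-rich of the 10 genes, with an exonic GC content of 42.1% beside a median of 50.1% over all genes tested, and the libraries differed in how their counts moved with GC content. Across 11034 genes, which are not independent replicates, Spearman's rho between GC content and a gene's deviation from the other libraries of the same group ran from -0.515 in WT replicate 1 to 0.615 in WT replicate 3. With the GC offset its log2 fold change was -2.26 (adjusted p = 0.00042).

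**Figure D3:**
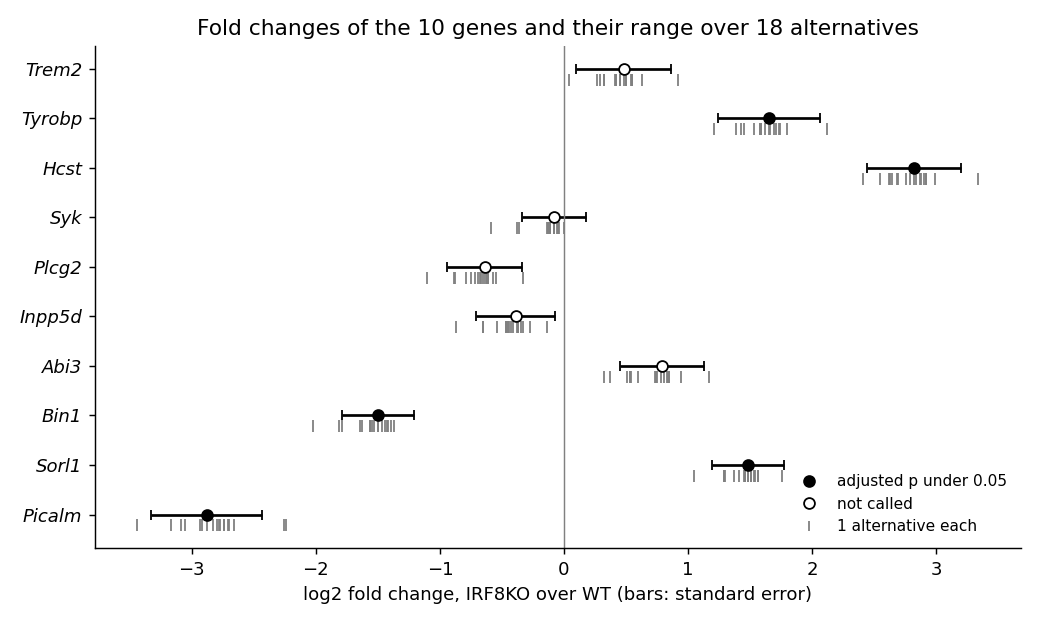
Log2 fold change of each of the 10 genes, IRF8KO over WT, from edgeR's quasi-likelihood fit; bars show 1 SE on each side, filled points passed the test, and each grey tick is the value under 1 of the 18 alternatives. Hcst at 2.82 and Picalm at -2.88 mark the ends, and the ticks of every gene but Syk, which reach 0.00, stay on the side of its point.

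Levels of different genes were compared per kilobase of the principal transcript. In WT, Tyrobp (3942 ± 1865 CPM per kb) and Trem2 (2514 ± 1081) led, and their ranges overlapped. Bin1 (299 ± 46.4) and Inpp5d (267 ± 68.4) came next and also overlapped, then Plcg2 (91.5 ± 27.3). Syk, Hcst and Abi3 could not be ordered, at 35.6 ± 2.42, 35.1 ± 18.4 and 32.9 ± 13.6, and neither could Picalm and Sorl1 at the end, at 4.70 ± 2.18 and 3.79 ± 1.03 CPM per kb (SD, n = 3 each). In IRF8KO, Tyrobp stood alone at 12361 ± 2196 CPM per kb, above Trem2 at 3516 ± 617. Hcst moved up beside Inpp5d, at 248 ± 39.0 and 203 ± 29.1 with overlapping ranges, and Bin1 came below both at 105 ± 16.1. Plcg2 and Abi3 overlapped at 58.7 ± 6.99 and 56.9 ± 13.4, followed by Syk at 33.7 ± 1.68 and Sorl1 at 10.6 ± 1.44. Picalm closed the order at 0.633 ± 0.157 CPM per kb. Measured per kilobase of all annotated exons, which for Trem2 are 4946 bases against 1088 in the principal transcript, Trem2 and Tyrobp did not overlap in either group. On that measure Bin1 in IRF8KO, at 53.5 ± 8.19, overlapped Abi3 at 54.9 ± 12.9 and Plcg2 at 58.7 ± 6.99, so its place above them depends on the length used.

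IRF8 binds DNA with partners such as PU.1 at composite elements that join an ETS and an IRF half-site, so the promoters were searched for such letters. RefSeq windows of 250 bases upstream of the start (GRCm38.p6) were found for 7 of the 10 genes, 9 windows in all: Trem2, Hcst, Syk, Plcg2, Inpp5d, Sorl1 and Picalm. The motifs, read on both strands, were GGAA and GAAA with any 2 bases between them for the composite element, GAAA and GAAA with any 2 bases between them for the IRF element, and AGGAAGT for a PU.1-type ETS core. AGGAAGT can overlap the composite element, as both hold GGAA. Among 32536 windows of this kind in the genome, 2.31%, 2.98% and 7.7% held the 3 motifs. Neither of the first 2 was in any of the 9 windows. AGGAAGT was found in 2 windows: in Hcst with its first base 46 and 17 bases upstream of the start, and in Inpp5d at 19 bases upstream. Such a match is a description of letters and not a binding site, and its absence says only that these letters are not in the window. The windows with a match, and those of the other called genes Sorl1 and Picalm, are printed 5′ to 3′ on the gene's own strand with AGGAAGT in capitals. They lie at chr7:30419855-30420104 (Hcst, minus strand), chr1:87620062-87620311 (Inpp5d, plus strand), chr9:42124298-42124547 (Sorl1, minus strand) and chr7:90129963-90130212 (Picalm, plus strand). A second Sorl1 window, at an internal start, also held no match and is not printed.
Hcst: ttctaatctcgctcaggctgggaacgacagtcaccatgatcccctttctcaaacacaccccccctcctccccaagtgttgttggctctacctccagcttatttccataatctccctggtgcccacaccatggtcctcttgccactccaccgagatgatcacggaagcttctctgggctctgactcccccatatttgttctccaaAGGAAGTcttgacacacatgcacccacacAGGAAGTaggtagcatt
Inpp5d: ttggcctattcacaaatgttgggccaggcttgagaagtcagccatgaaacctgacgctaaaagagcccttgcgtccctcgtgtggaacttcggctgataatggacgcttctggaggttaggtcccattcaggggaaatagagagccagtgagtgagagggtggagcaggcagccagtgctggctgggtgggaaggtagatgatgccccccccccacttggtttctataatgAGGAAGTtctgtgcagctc
Sorl1: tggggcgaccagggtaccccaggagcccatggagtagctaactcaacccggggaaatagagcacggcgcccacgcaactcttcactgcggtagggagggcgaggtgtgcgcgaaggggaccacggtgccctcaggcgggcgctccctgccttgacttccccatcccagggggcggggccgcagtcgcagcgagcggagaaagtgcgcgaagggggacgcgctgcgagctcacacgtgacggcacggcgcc
Picalm: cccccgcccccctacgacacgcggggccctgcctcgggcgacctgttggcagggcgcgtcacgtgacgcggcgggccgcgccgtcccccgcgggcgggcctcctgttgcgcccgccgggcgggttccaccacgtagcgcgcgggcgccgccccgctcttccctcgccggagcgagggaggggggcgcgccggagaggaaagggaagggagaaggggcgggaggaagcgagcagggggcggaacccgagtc

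The neighbours of these genes in their pathways were then followed through 11 lists. For scale, the share called among all genes tested was 19.1% and their median was -0.11. The lists were chosen with earlier results of these data known, so a list's share above 19.1% is a description and no test of the list. The lists' counts moved with single libraries, and in most of them more genes were called without WT replicate 3. Of the genes named below, Cd300lb, Pilrb1, Pilrb2, Trem1, Trem3, Dnm1, Ms4a7, Fyn and Abi2 had under 10 counts in at least 1 library of the lower group. Such genes can pass the filter through the other group, where they are high, so their values are given without a test and counts that include them are descriptions.

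Receptors that use DAP12 or DAP10, with the related ITAM chain Fcer1g, made a list of 16 genes, of which 9 passed the filter and 6 rose. Most of those entered only through the IRF8KO libraries, so nothing is read from that count. Cd300lb, an activating CD300 receptor, went from 2.36 ± 1.61 CPM in WT to 103 ± 16.0 in IRF8KO. The paired receptors Pilrb1 and Pilrb2, near-identical copies whose reads may be split, had 3 and 2 counts in all WT libraries together and 288 and 1156 in the IRF8KO libraries. The scaled ratios were 95.7 (95% interval 32.4 to 467, counting error only) and 576 (159 to 4765). Outside the naming rule and seen first, the other 3 that rose were Trem1, Trem3 and Fcer1g. Trem1, an amplifier of inflammatory signals on neutrophils and monocytes and a close neighbour of Trem2 on chromosome 17, had 0, 0 and 20 counts in WT and 430, 426 and 797 in IRF8KO. S100a8, a neutrophil marker, was at 121 CPM in IRF8KO replicate 2 and at most 0.802 CPM elsewhere, and the part of neutrophils in the counts of Trem1 was not tested. Trem3 had no count in WT and 154 in IRF8KO, at least 51.2-fold higher against a floor of 3 counts over the group. Fcer1g, the ITAM chain of Fc receptors, rose beside Tyrobp from 1109 ± 391 to 3737 ± 787 CPM (log2 fold change 1.75, adjusted p = 0.0071). Siglech, Clec5a and Treml2 did not pass the test, at -0.27, 0.03 and -0.51.

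Among 36 tested genes of 38 that act after the ITAM, 1 rose, 6 fell and 29 did not pass, 19.4% called with a median of -0.59. Fyn, a Src-family kinase, had 85, 159 and 104 counts in WT and 11, 15 and 8 in IRF8KO. Plcg1, the relative of Plcg2, fell from 65.7 ± 11.7 to 17.6 ± 4.24 CPM (-1.90, adjusted p = 0.0013), and the Rac exchange factor Vav2 from 91.3 ± 17 to 29.5 ± 1.66 CPM (-1.63, adjusted p = 0.0019). Rasgrp4, a Ras activator, was the gene that rose, at 2.55 (adjusted p = 0.0038). It shares 18.2% of its exonic length with other genes, and counted by strand its value was 0.67 or 0.53 and not called. Without WT replicate 3 the number that fell was 14. It was 3 without IRF8KO replicate 3, and 4 without WT replicate 2 or without IRF8KO replicate 1. With library size alone 12 fell, and 10 with the GC offset. The number that rose was 4 without WT replicate 3, 2 without IRF8KO replicate 2, when scaled without Apoe or with DESeq2, and 0 on either strand column.

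The brakes on ITAM signals, phosphatases and the inhibitory receptors that recruit them, held 22 tested genes of 24, with 5 higher, 4 lower and 13 not called (40.9%, median -0.49). Pilra, an inhibitory receptor paired with the Pilrb genes and itself at a human Alzheimer locus, rose from 15.2 ± 6.58 to 572 ± 68.6 CPM (log2 fold change 5.23, adjusted p = 6.8e-06), with 15.2% of its exonic length shared. Cd300lf, another inhibitory receptor, rose by 2.25 on the log2 scale (adjusted p = 0.0063), and Ptpn11, which encodes the phosphatase SHP2, by 1.58 (adjusted p = 0.0094). Both calls were lost without IRF8KO replicate 3 (adjusted p = 0.052 and 0.07) and with library size alone (0.086 and 0.110). Of the genes that fell, the adaptor Pag1, which brings CSK to the Src kinases, was at -1.27 (adjusted p = 0.014), the adaptor Dok1 at -1.33 (adjusted p = 0.026), and Inppl1, the SHIP2 relative of Inpp5d, at -1.63 (adjusted p = 0.038). Inppl1 was not called without any 1 of the 6 libraries, with adjusted p from 0.051 to 0.135, nor on the second strand column (0.103). Pag1 was not called without WT replicate 2 (adjusted p = 0.051) or IRF8KO replicate 1 (0.08), nor Dok1 without IRF8KO replicate 2 (0.089) or IRF8KO replicate 3 (0.143). Cd33, the sialic acid receptor of Alzheimer risk that opposes TREM2, did not pass (0.49, adjusted p = 0.264). The balance turned with the scaling, to 2 higher and 7 lower with library size alone, and was 7 and 7 with the GC offset; without the filter 7 were lower. The 5 that rose became 3 without WT replicate 1, WT replicate 2 or IRF8KO replicate 1, and 1 without IRF8KO replicate 3. The 4 that fell became 2 without WT replicate 1 and 1 without WT replicate 2, IRF8KO replicate 1 or IRF8KO replicate 3.

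For PI3 kinase and AKT, the route that DAP10 feeds and SHIP1 limits, 21 of 23 genes were tested: 0 rose, 7 fell and 14 did not pass (33.3%, median -0.80). Rptor, the mTORC1 scaffold, fell from 321 ± 69.0 to 99.2 ± 33.8 CPM (log2 fold change -1.70, adjusted p = 0.0042). Of the gamma-type PI3 kinase, the regulator Pik3r6 fell by 1.23 (adjusted p = 0.0076) and the catalytic subunit Pik3cg fell by 1.71 on the log2 scale (adjusted p = 0.010). Without IRF8KO replicate 3 the adjusted p was 0.053 for Pik3r6 and 0.086 for Pik3cg, for which it was 0.066 without IRF8KO replicate 1 and the log2 fold change -2.29 without IRF8KO replicate 2. The number that fell was 4 without WT replicate 2, IRF8KO replicate 1 or IRF8KO replicate 2, and 1 without IRF8KO replicate 3. The count of genes that rose was 2 without WT replicate 3.

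TREM2 is cut at the cell surface by ADAM10 and ADAM17 and its stub by gamma-secretase, and all 8 genes of that list were tested, with 1 higher, 2 lower and 5 not called (37.5%, median 0.47). Adam17 stood at 122, 133 and 42.7 CPM in WT and 12.2, 29.9 and 9.54 CPM in IRF8KO, a fall of 2.52 on the log2 scale (SE 0.51, adjusted p = 0.0051). Adam10 stood at 77.4, 67.3 and 42.0 CPM in WT and at 3.37, 27.9 and 5.64 CPM in IRF8KO, at -2.31 (SE 0.63, adjusted p = 0.023). IRF8KO replicate 2 was the highest IRF8KO library for both, and without it the values were -3.18 and -3.76. On the first and second strand columns Adam17 was at -1.93 and -1.66, still called. Adam10 was not called without IRF8KO replicate 1 (adjusted p = 0.08) or IRF8KO replicate 3 (0.135), nor with library size alone (-2.71, adjusted p = 0.052), each of which left 1 gene lower. Aph1a, a gamma-secretase subunit, rose from 19.9 ± 3.03 to 59.7 ± 9.05 CPM (1.59, adjusted p = 0.0028), with 12.9% of its exonic length shared. As many as 4 genes of this list rose without WT replicate 3, and 3 did with DESeq2 or the GC offset.

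The WAVE complex and Rac genes, with which ABI3 works, had 16 of 19 tested: 1 rose, 4 fell and 11 did not pass (31.2%, median -0.68). Cyfip1, a core subunit, fell from 399 ± 98.1 to 95.9 ± 22.5 CPM (log2 fold change -2.06, adjusted p = 0.0011), with 12.5% of its exonic length shared. Of the relatives of Abi3, Abi1 fell by 2.05 on the log2 scale (adjusted p = 0.026), while Abi3 itself was at 0.79 and not called. Abi1 was not called without WT replicate 1 (adjusted p = 0.052), WT replicate 2 (0.104), IRF8KO replicate 1 (0.108) or IRF8KO replicate 3 (0.109), and without IRF8KO replicate 2 it was at -2.85. Abi2 had 36, 68 and 44 counts in WT and 3, 19 and 5 in IRF8KO. Baiap2, an adaptor between Rac and WAVE, rose from 7.28 ± 0.813 to 61.6 ± 9.79 CPM (3.08, adjusted p = 5.3e-05). The number that fell was 1 without WT replicate 1, WT replicate 2, IRF8KO replicate 1 or IRF8KO replicate 3, and 7 without WT replicate 3, when 3 rose; limma-voom called 2 higher.

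Retromer and its sorting partners, the machinery of SORLA, had 15 of 19 genes tested, with 0 higher, 4 lower and 11 not called (26.7%, median -0.37). Vps35, the retromer core, fell by 2.26 on the log2 scale (adjusted p = 0.013), though WT replicate 3 at 14.2 CPM lay within the IRF8KO range of 5.21 to 14.3 CPM. Vps26a fell by 2.01 (adjusted p = 0.021) and Snx5 by 1.42 (adjusted p = 0.018), the opposite direction to Sorl1. All 3 lost the call without WT replicate 2 (adjusted p = 0.052, 0.071 and 0.095), IRF8KO replicate 1 (0.07, 0.096 and 0.102) and IRF8KO replicate 3 (0.094, 0.119 and 0.117), and Vps26a also without WT replicate 1 (0.057). Without IRF8KO replicate 2, Vps26a was at -2.84. The genes that fell had a median GC content of 42.9%, beside 50.1% over all genes tested, and with the GC offset Vps35 was at -1.52 (adjusted p = 0.012). The number that fell was 0 without WT replicate 2, IRF8KO replicate 1 or IRF8KO replicate 3, 2 without WT replicate 1, 6 without WT replicate 3 or with the GC offset, and 7 with library size alone.

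Clathrin endocytosis, the setting of Picalm and Bin1, had 26 of 31 genes tested, of which 3 rose, 1 fell and 22 did not pass (15.4%, median -0.19). Dab2, a cargo adaptor of macrophages, rose from 9.60 ± 3.56 to 111.5 ± 56.5 CPM (log2 fold change 3.55, adjusted p = 0.00022). Clta, a clathrin light chain, rose by 1.03 on the log2 scale (adjusted p = 0.024). The dynamin Dnm1 had 2, 2 and 9 counts in WT and 29, 51 and 36 in IRF8KO and was tested through the IRF8KO libraries, so its call is not read. The early endosome GTPase Rab5a fell by 1.89 on the log2 scale (adjusted p = 0.025). The calls of Clta and Rab5a were each lost without WT replicate 1 (adjusted p = 0.079 and 0.102), WT replicate 2 (0.122 and 0.08), IRF8KO replicate 1 (0.076 and 0.095) or IRF8KO replicate 3 (0.142 and 0.116). Clta was also lost with library size alone (0.52, adjusted p = 0.099) and on the first strand column (0.78, adjusted p = 0.065). With library size alone the balance turned to 1 higher and 4 lower, and with the GC offset it was 5 and 3. The number that rose was 1 without any 1 of those 4 libraries and 8 without WT replicate 3. Of genes that fell there were 0 without any 1 of the 4, 5 without WT replicate 3 and 2 without IRF8KO replicate 2.

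The list of other Alzheimer risk genes was the longest, with 52 of 63 tested: 11 rose, 9 fell and 32 did not pass (38.5%, median -0.13). Of the MS4A membrane proteins at a risk locus that modulates soluble TREM2 in people, Ms4a7 had 6, 9 and 7 counts in WT and 3594, 3277 and 3389 in IRF8KO. Ms4a6c went from 4.36 ± 0.0703 to 75.9 ± 19.4 CPM (4.12, adjusted p = 1.2e-05), with 53.1% of its exonic length shared. On the second strand column Ms4a6c was at 3.38 (adjusted p = 3.9e-05). Ms4a7 is also among the border-associated macrophage markers above. Scimp, an adaptor of Src kinases, rose from 4.37 ± 1.81 to 134 ± 38.3 CPM (4.98, adjusted p = 1.3e-05). The protease gene Ctsh fell from 1205 ± 288 to 87.1 ± 43.3 CPM (-3.79, adjusted p = 0.00012). App, the amyloid precursor whose traffic SORLA and PICALM steer, fell from 64.8 ± 14.0 to 16.9 ± 1.84 CPM (-1.94, adjusted p = 0.00096), and Rhoh, a GTPase-like regulator of blood cells, by 1.59 on the log2 scale (adjusted p = 0.0017). The number that rose was 17 without WT replicate 3. The number that fell was 17 without WT replicate 3, 6 without WT replicate 2 or IRF8KO replicate 1 and 4 without IRF8KO replicate 3.

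Disease-associated microglia, a state seen around amyloid plaques, switch on a first set of genes without TREM2 and a second that needs it. Of 7 genes of the TREM2-independent set, which holds Tyrobp itself, 4 rose (Tyrobp, Apoe, Fth1 and Lyz2), 0 fell and 3 did not pass (57.1%, median 1.61). Fth1, the iron-storage chain, rose from 1799 ± 436 to 7329 ± 1488 CPM (log2 fold change 2.03, adjusted p = 0.003), and the lysozyme gene Lyz2 from 366 ± 140 to 1119 ± 233 CPM (1.61, adjusted p = 0.0081). Lyz2 was not called without IRF8KO replicate 3 (adjusted p = 0.06), and without that library 2 of the set were called. Of 13 tested genes of the 15 in the TREM2-dependent set, which includes Trem2, 6 rose, 2 fell and 5 did not pass (61.5%, median 0.48). Cst7, a cystatin, went from 7.30 ± 0.528 to 329 ± 82.4 CPM (5.49, adjusted p = 2.1e-06), the tetraspanin Cd63 from 357 ± 96.6 to 2231 ± 459 CPM (2.64, adjusted p = 0.00038), and the lectin receptor Clec7a from 4.17 ± 1.94 to 39.5 ± 18.3 CPM (3.23, adjusted p = 0.00072). The chemokine gene Ccl6 fell by 3.12 (adjusted p = 4e-05) on the log2 scale, and the phagocytic receptor Axl fell by 1.51 (adjusted p = 0.02). Axl was at -0.87 without WT replicate 3, its highest library, and was not called without IRF8KO replicate 1 (0.056), IRF8KO replicate 2 (0.063) or IRF8KO replicate 3 (0.121), each of which left 1 gene lower. The number that rose was 4 without IRF8KO replicate 1 or IRF8KO replicate 3, the same as with library size alone.

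**Figure D4:**
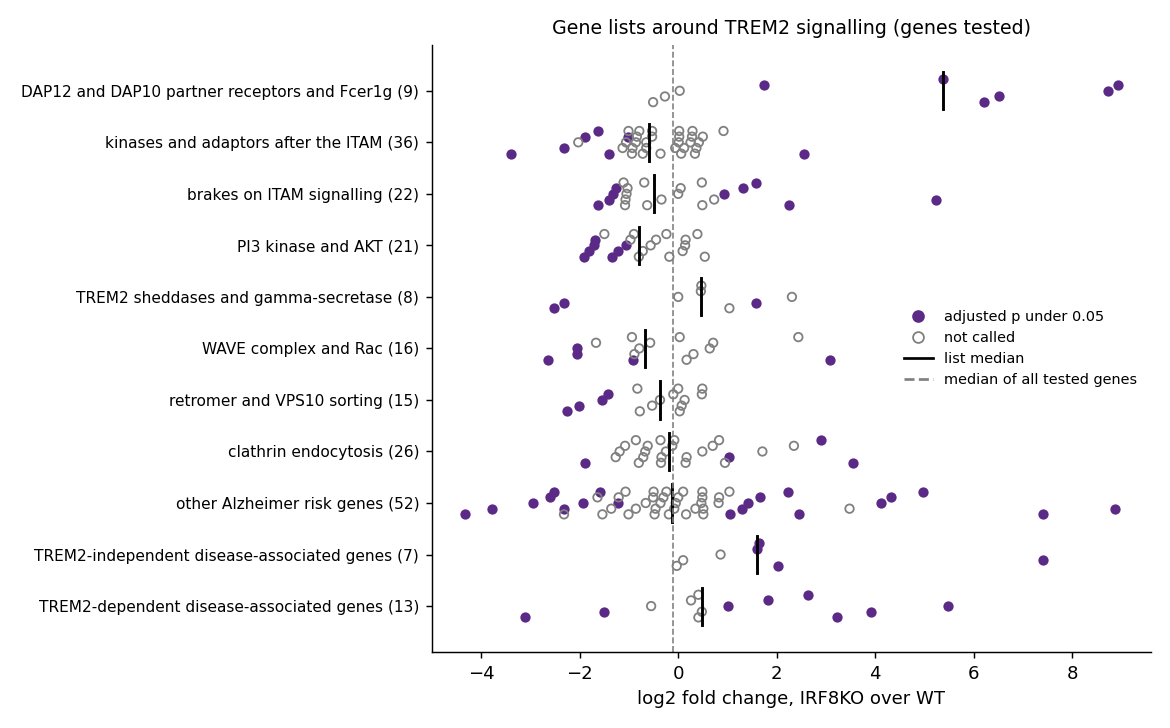
Log2 fold change, IRF8KO over WT, of each tested gene of the 11 pathway lists (number tested in brackets); filled points passed edgeR's quasi-likelihood test, short lines are list medians and the dashed line is the median of all genes tested, -0.11. Points of Trem3, Pilrb1 and Pilrb2, at 0 to 3 counts in WT, are fitted values and no bounds; the PI3 kinase and AKT list has 7 filled points, all below 0.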

How the data were processed

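The authors deposited 1 file of raw counts per gene for each of 6 libraries, in the layout of the aligner STAR. The submitters' processing notes name STAR 2.5.2b, Picard 2.17.11, bcl2fastq, Subread, featureCounts and the build mm10, with no order; the annotation is not given in the sources used here. The 4 summary lines, among them reads outside any gene (2.44% to 7.70% of uniquely mapped reads) and reads on several genes (8.20% to 10.8%), were left out. Between 49.8% and 50.3% of counts fell on either strand, so the column that ignores strand was used. GENCODE M21 (GRCm38) matched 49326 of 49585 identifiers and gave symbols, lengths, GC content and positions.

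Counts were fitted with edgeR 4.0.16 in R 4.3.3: default filter (minimum count 10), TMM scaling, quasi-likelihood test, Benjamini-Hochberg adjustment over 11041 genes. CPM are counts per 1000000 of the TMM-scaled library size and so do not sum to that number. Depth ran from 3658917 to 11098363 gene counts, intervals and floors (3 counts) cover counting error only, and the scripts were tested on simulated data. Counts within a group differed by more than sampling noise for every pair of libraries. Replicate numbers did not pair the libraries. Each library came from its own brain, but nothing is said of litters.

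The members and lists were chosen with earlier results of these data known. Named genes are the 10 members, Irf8 and, in each list, up to 3 called genes per direction by smallest p-value, averaging 1 CPM or more. Of the list genes 1 was not found by symbol and is not analysed here. Marker lists: microglia, pan-macrophages, border-associated macrophages, monocytes, neutrophils, NK and T cells, B cells, neurons, oligodendrocytes, astrocytes and endothelial cells. Alternatives were other scalings, filters, strand columns, DESeq2 1.42.0, limma 3.58.1 (voom), a GC offset, a replicate block and leaving out each library.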

Additional observations from a re-analysis of the deposited data

How the results depend on the processing

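The number of genes called ranged from 910 to 4003 when 1 library was left out, beside 2109 with all 6. The number of the 10 genes that rose ranged from 2 to 5 (5 without WT replicate 3) and the number that fell was 2 throughout. It was 4 with library size alone, with the GC offset, and with the replicate block and GC offset together. Same-numbered libraries of the 2 groups had correlated deviations of -0.26, 0.328 and 0.114 and not every library correlated best with its own number. With the replicate block 2353 genes were called, and of the 10 genes 3 rose and 2 fell. Scaling moved the balance of calls: 50.5% were higher with TMM (1064 higher, 1045 lower), 25.4% with library size alone (651 and 1908, median of all genes -0.61) and 56.9% when scaled without Apoe (1154 and 873, median -0.03). With the GC offset 1302 were higher and 1655 lower, and DESeq2 called 1331 and 1361. The log2 difference of the Hcst to Tyrobp ratio was 1.20, 1.42 on the first and 0.97 on the second strand column. The Trem2 to Tyrobp ratio kept its direction in every alternative run. Of 44 other named genes, 25 kept their call in every alternative, 19 lost it in at least 1 and 0 reversed. The causes of these shifts were not tested. WT replicate 1, with 3658917 counts, limits what can be seen of low genes. For marker lists without values above, the summed CPM in WT and in IRF8KO were 23171 to 44084 and 21157 to 30403 for pan-macrophages. They were 191.5 to 223.7 and 156.8 to 269.0 for astrocytes, and 0.827 to 2.97 and 2.93 to 56.0 for monocytes. For neutrophils they were 651 to 999.6 and 871 to 1318, and for endothelial cells 18.6 to 30.4 and 2.89 to 9.98. Of 8 tested astrocyte markers 5 were higher, some through the IRF8KO libraries alone. Slc1a3 was lower, at 191, 180 and 84.4 CPM in WT and 7.87, 15.7 and 2.71 CPM in IRF8KO. Csf3r made up most of the neutrophil sum in every library. In IRF8KO replicate 2, Camp, Ngp, S100a9 and the monocyte marker Chil3 stood at 58.3, 79.2, 57.2 and 34.6 CPM. Elsewhere they reached at most 0.217 CPM. The part of such cells was not tested.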
